A study of Homo sapiens with 16 samples.

Results

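The genes described here are 41 target genes of the transcription factor p53. They were taken from a fixed list of symbols, chosen with earlier results of these data known. A row of the gene tables belonged to the list when its NCBI gene number carried one of those symbols. All 41 had a row, out of 27434 rows in each table. The study asked how the RNA-binding protein SAM68 (gene KHDRBS1) and the long noncoding RNA NORAD affect the transcriptome, and it sequenced poly(A) RNA of U2OS, an osteosarcoma line, and HCT116, a colorectal carcinoma line, in 16 libraries that form 8 groups of 2. U2OS cells, all wild type by their label, received a control siRNA pool, an siRNA pool against SAM68, an empty control plasmid or a plasmid that carries the mouse SAM68 gene. HCT116 cells were wild type or SAM68 knockout, and each genotype received the control siRNA pool or a pool against NORAD. All groups were transfected with the same lipid reagent and harvested after 48 h, with siRNA at 50 nM or plasmid at 100 ng per 20000 cells. The labels do not say how many clones the knockout line represents, so that clone and genotype cannot be told apart. They also leave out whether both libraries of each group are separate cultures, and p-values therefore reflect the spread between these libraries alone, which may be technical.

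The protein p53 is kept scarce in unstressed cells by the ubiquitin ligase MDM2. Stress such as DNA damage stabilises it, and it then binds pairs of short half-sites near its target genes and activates their transcription. The targets stop the cell cycle, repair DNA, adjust metabolism and promote cell death, and MDM2 is itself a target, which closes a feedback loop.

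The sequences in which p53 could bind near the transcription start are shown for 12 members. These are all members whose window held a full site, as defined below, of at most 3 mismatches. RefSeq promoter windows of GRCh38.p14, from 250 bases before to 50 bases after a start, were present for 31 of the 41 members. The p53 consensus half-site is a palindrome of 10 bases, so a match counts for both strands. A full site was taken as 2 half-sites with a spacer of at most 13 bases. The C and G that bound the 4 central bases of each half-site had to match, so mismatches were allowed only at other positions. At least 1 half-site without a mismatch was found in 7 of the 31 members (22.6%) and in 8.07% of 17577 genes with a window. A full site without a mismatch was found in 1 member, DDB2, and in 7 of all genes (0.0398%). With at most 2 mismatches the counts were 5 members (16.1%) against 3.58% of genes, and with at most 3 mismatches 12 members (38.7%) against 15.8% of genes. The following sites are read along the strand of the gene, with the 4 central bases of each half-site in capitals.
DDB2, chr11:47214979-47214999, plus strand, 0 mismatches: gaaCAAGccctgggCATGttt
AEN, chr15:88621306-88621325, plus strand, 2 mismatches: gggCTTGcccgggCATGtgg
FAS, chr10:88991309-88991328, plus strand, 2 mismatches: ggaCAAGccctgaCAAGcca
FDXR, chr17:74872996-74873025, minus strand, 2 mismatches: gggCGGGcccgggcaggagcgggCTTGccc
MDM2, chr12:68808923-68808942, plus strand, 2 mismatches: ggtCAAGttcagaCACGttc
CD82, chr11:44565570-44565599, plus strand, 3 mismatches: gggCGTGtcttctgggggcggggCCTGccg
GDF15, chr19:18386186-18386205, plus strand, 3 mismatches: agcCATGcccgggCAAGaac
PLK2, chr5:58460196-58460218, minus strand, 3 mismatches: agaCTTGcttcccggcCACGcgc
PMAIP1, chr18:59899811-59899830, plus strand, 3 mismatches: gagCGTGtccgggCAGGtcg
RPS27L, chr15:63157527-63157546, minus strand, 3 mismatches: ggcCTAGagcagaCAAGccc
SESN1, chr6:109009018-109009037, minus strand, 3 mismatches: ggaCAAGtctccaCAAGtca
ZMAT3, chr3:179071867-179071892, minus strand, 3 mismatches: gggCCTGctccgccaagcaCATGcgc
These are matches of letters in a short window, and p53 binding was not measured here.

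Library depth ranged from 11349545 to 27387412 expected counts, the read estimates per gene. Of the epithelial markers in the 8 HCT116 libraries, EPCAM, KRT8, KRT19 and CLDN7 had median TPM (a transcript level corrected for length and depth) of 313, 2237, 921 and 208. In U2OS, the mesenchymal markers VIM, SPARC and THY1 had medians of 2686, 529 and 150 TPM, while COL1A2 and TWIST1 were at 0.055 and 0 and the keratins KRT8 and KRT18 at 368 and 735. The 9 markers of blood, endothelial and liver cells did not exceed 0.9 TPM in any library. The targeted genes followed their labels. KHDRBS1 had 218 and 241 CPM (read counts scaled to library size) in wild-type HCT116 with control siRNA and 31.8 and 38.5 in the knockout, so knockout cells kept a residual transcript level (log2 fold change -2.57 averaged over both siRNAs). NORAD siRNA took NORAD from 249.6 and 232 to 50.5 and 47.5 CPM in wild type and from 226 and 251 to 77.1 and 54.3 CPM in knockout cells.

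In SAM68 knockout HCT116 cells, averaged over both siRNAs, at least 2 p53 target genes of each functional group were called higher than in wild type. With control siRNA alone, 0 were called in the groups of DNA repair and of feedback on p53. None passed the test as lower, apart from NINJ1 in 2 of the alternative analyses. In these bulk samples more cells that express a gene and more RNA per cell cannot be told apart. Averaged over both siRNAs, 24 of the 40 members tested rose, led by TP53INP1 (2.81-fold), CDKN1A (2.15-fold), TP53I3 (2.02-fold), GDF15 (1.99-fold) and SESN1 (1.95-fold). Among all 13764 genes tested, 11.0% were called higher and 6.62% lower. The members' median log2 fold change was 0.40, against -0.01 for all genes tested, and 37 of the 40 members had a positive value. Calls here and below are at an adjusted p below 0.05 in edgeR's quasi-likelihood test, with Benjamini-Hochberg adjustment over all genes tested. Values after ± are approximate standard errors of the log2 fold change, computed as its absolute value divided by the square root of the test's F statistic. SPATA18, which takes part in the removal of damaged mitochondria, did not pass the filter on low counts: its expected count was at most 2 in any of the 16 libraries.

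The summed level of the 41 members was 1973, 1990, 2042 and 2057 CPM in the 4 wild-type libraries and 2756, 2795, 2851 and 2935 CPM in the 4 knockout libraries. The groups did not overlap in this sum. Gene by gene, all 4 knockout libraries lay above all 4 wild-type libraries for 28 of the 40 members tested (70.0%, against 10.4% of all genes tested), and all 4 lay below for 0 (against 8.71%).

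**Figure D1:**
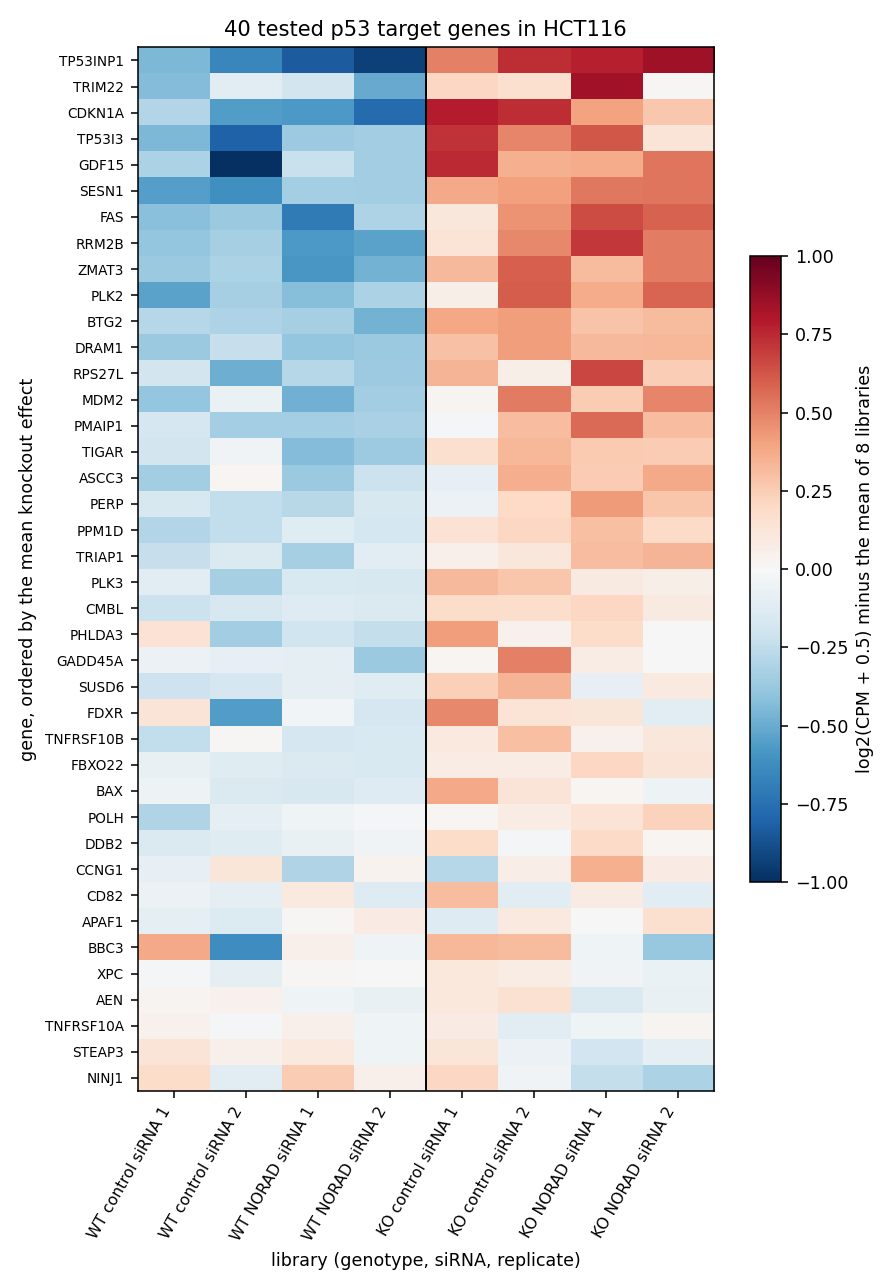
Level of the 40 tested p53 target genes (rows, ordered by the mean knockout effect) in the 8 HCT116 libraries (columns), as log2(CPM + 0.5) minus the gene's mean over the 8 libraries, with colours limited to -1 and 1. The 4 knockout columns are mostly red and the 4 wild-type columns mostly blue down to about BAX, while the genes at the foot, from CCNG1 to NINJ1, show no such division.

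Among the genes of cell cycle arrest, 4 of 5 rose. CDKN1A, which encodes the cyclin-dependent kinase inhibitor p21, had 161 and 134 CPM in wild type with control siRNA, 133 and 116 in wild type with NORAD siRNA, 341 and 329.6 in knockout with control siRNA and 262 and 238 in knockout with NORAD siRNA. The lowest knockout library was above the highest wild-type library, and the log2 fold change was 1.10 ± 0.08 (adjusted p = 0.000143). BTG2, an antiproliferative transcriptional cofactor, had 23.97 and 23.6 and then 23.2 and 21.01 CPM in the wild-type groups against 38.5 and 39.3 and 35.8 and 36.6 CPM in the knockout groups, in the same order of siRNAs, with a difference of 0.72 ± 0.08 (adjusted p = 0.00153). Its 4 knockout values lay close together and apart from wild type. PLK3, a polo-like kinase induced by stress, had 32.8 and 27.9 and 31.8 and 31.6 CPM in the wild-type groups and 44.2 and 42.9 and 37.6 and 36.9 CPM in the knockout groups, and its genotypes did not overlap. PLK2, another such kinase, and PLK3 rose by 0.84 ± 0.13 and 0.38 ± 0.08 on the log2 scale (adjusted p = 0.00735 and 0.018). GADD45A, a growth arrest protein, had a difference of 0.32 ± 0.12 and did not pass (adjusted p = 0.0849).

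Among the 4 genes that feed back on p53, 3 rose. MDM2 had 149 and 186 CPM in wild type with control siRNA, 139.8 and 153 with NORAD siRNA, and 199 and 279 and then 232 and 274 CPM in the knockout with the same siRNAs. All knockout libraries exceeded all wild-type libraries, the nearest pair being 186 and 199 CPM, and the difference was 0.66 ± 0.12 (adjusted p = 0.0128). PPM1D, the phosphatase Wip1 that acts on p53 and its kinases, had 34.6 and 35.8 and 38.9 and 37.4 CPM in the wild-type groups and 46.8 and 49.1 and 52.2 and 48.4 CPM in the knockout groups and rose by 0.43 ± 0.07 (adjusted p = 0.0103). FBXO22, the substrate receptor of a ubiquitin ligase, had 59.4 and 57.4 and 56.3 and 56.2 CPM in the wild-type groups and 65.9 and 65.8 and 72.4 and 68.5 CPM in the knockout groups and rose by 0.25 ± 0.07 (adjusted p = 0.0355), the smallest change among the members called. Neither gene overlapped between genotypes. CCNG1, the cyclin G1 gene, showed 0.12 ± 0.12 and did not pass (adjusted p = 0.484); its wild-type libraries spread from 86.2 to 116 CPM and its knockout libraries from 86.9 to 136 CPM.

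Among the 14 genes of cell death and its control, 7 were called higher. Of the classical mitochondrial effectors PMAIP1 was among them, BAX came near the threshold without passing, and BBC3 did not pass. TP53INP1, a stress-induced nuclear and autophagy protein, had 10.7 and 9.26 CPM in wild type with control siRNA, 8.11 and 7.52 with NORAD siRNA, 21.3 and 25.1 in knockout with control siRNA and 25.8 and 27.1 with NORAD siRNA. The genotypes were far apart under both siRNAs, more so with NORAD siRNA, and the averaged difference was 1.49 ± 0.10 (adjusted p = 9.54e-05). TP53I3, an oxidoreductase linked to reactive oxygen, had 11.01 and 8.47 and 11.7 and 11.8 CPM in the wild-type groups and 25.4 and 21.5 and 23.6 and 16.6 CPM in the knockout groups, a difference of 1.02 ± 0.14 (adjusted p = 0.00434). The lowest of the knockout values, 16.6 CPM, stood above the highest of wild type, 11.9 CPM.

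Death receptor genes moved unequally. FAS, the receptor of FAS ligand, had 12.1 and 12.5 CPM in wild type with control siRNA, 9.85 and 13.1 with NORAD siRNA, 17.7 and 22.5 in knockout with control siRNA and 26.1 and 24.9 with NORAD siRNA, a difference of 0.94 ± 0.12 (adjusted p = 0.0037) with no overlap of the genotypes. TNFRSF10B, which encodes the TRAIL receptor DR5, had 156 and 186 CPM in wild type with control siRNA, 164 and 166 with NORAD siRNA, 198 and 228 in knockout with control siRNA and 190.2 and 200.0 with NORAD siRNA, a smaller difference of 0.28 ± 0.08 (adjusted p = 0.0445). TNFRSF10A, the other TRAIL receptor that signals death, stayed between 36.2 and 41.4 CPM in all 8 libraries, with a difference of -0.01 ± 0.08 (adjusted p = 0.917). It was the flattest of the 3 receptors.

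PERP, a membrane protein of cell junctions, had 97.2 and 91.4 and 89.8 and 96.98 CPM in the wild-type groups and 104 and 125 and 146 and 132 CPM in the knockout groups. TRIAP1, a mitochondrial protein that restrains apoptosis, had 52.9 and 56.3 and 49.3 and 57.4 CPM in the wild-type groups and 64.3 and 67.4 and 76.9 and 78.8 CPM in the knockout groups. In both genes the knockout libraries lay above wild type, more clearly with NORAD siRNA. PERP, PMAIP1, which encodes the BH3-only protein NOXA, and TRIAP1 rose by 0.43 ± 0.08, 0.60 ± 0.10 and 0.41 ± 0.08 on the log2 scale (adjusted p = 0.0142, 0.00862 and 0.0136).

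BAX, the pore-forming protein of the outer mitochondrial membrane, had 38.1 and 35.6 CPM in wild type with control siRNA, 35.2 and 36.00 with NORAD siRNA, 51.5 and 43.1 in knockout with control siRNA and 39.9 and 38.1 with NORAD siRNA. The knockout libraries were higher, but the lowest of them equalled the highest of wild type to 3 digits, and the difference of 0.25 ± 0.08 did not pass (adjusted p = 0.0652). BBC3, the BH3-only protein PUMA, had 12.4 and 5.99 CPM in wild type with control siRNA, 9.85 and 9.17 with NORAD siRNA, 12.1 and 11.9 in knockout with control siRNA and 9.18 and 7.17 with NORAD siRNA. Its genotypes overlapped, with a difference of 0.07 ± 0.20 (adjusted p = 0.814). APAF1, AEN, PHLDA3 and NINJ1, which encode the apoptosome scaffold, a nuclease, an AKT inhibitor and a protein of plasma membrane rupture, had differences of 0.08, 0.03, 0.32 and -0.20 and did not pass (adjusted p = 0.568, 0.773, 0.104 and 0.187).

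Of the 5 genes of DNA repair and nucleotide supply, 2 rose. RRM2B, the p53-inducible subunit of ribonucleotide reductase, had 66.7 and 69.3 CPM in wild type with control siRNA, 58.6 and 60.1 with NORAD siRNA, 96.03 and 122 in knockout with control siRNA and 143 and 125 with NORAD siRNA, and the difference was 0.94 ± 0.09 (adjusted p = 0.000978). Every knockout library was above every wild-type library. ASCC3, a helicase of alkylation repair, had 110.4 and 143 and 108 and 121 CPM in the wild-type groups and 133 and 181 and 168 and 183 CPM in the knockout groups and rose by 0.47 ± 0.12 (adjusted p = 0.0293), although its genotypes overlapped. DDB2 and XPC, which recognise damage in nucleotide excision repair, and POLH, the polymerase that bypasses ultraviolet damage, had differences of 0.20 ± 0.08, 0.04 ± 0.07 and 0.24 ± 0.08 and did not pass (adjusted p = 0.119, 0.68 and 0.0658). DDB2, whose window holds the site without a mismatch, was thus not among the members called, nor were AEN, FDXR and CD82. In DDB2 and POLH all 4 knockout libraries still lay above all 4 wild-type libraries, while XPC, AEN, FDXR and CD82 overlapped between genotypes.

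Of the 6 genes of metabolism, autophagy and iron that could be tested, 4 rose. SESN1, a sestrin that restrains the growth kinase complex mTORC1, had 10.96 and 10.5 CPM in wild type with control siRNA, 12.7 and 12.7 with NORAD siRNA, 21.3 and 21.8 in knockout with control siRNA and 23.6 and 23.9 with NORAD siRNA. The replicates were close and the genotypes lay far apart, with a difference of 0.96 ± 0.08 (adjusted p = 0.000351). TIGAR, a fructose bisphosphatase that dampens glycolysis, had 37.2 and 41.4 and 31.1 and 32.8 CPM in the wild-type groups and 47.3 and 53.5 and 50.9 and 50.6 CPM in the knockout groups. CMBL, a hydrolase, had 52.1 and 54.3 and 55.3 and 54.9 CPM in the wild-type groups and 68.98 and 68.5 and 69.98 and 64.5 CPM in the knockout groups. Neither overlapped between genotypes. DRAM1, a lysosomal membrane protein of autophagy, TIGAR and CMBL rose by 0.70 ± 0.08, 0.52 ± 0.08 and 0.33 ± 0.07 on the log2 scale (adjusted p = 0.00246, 0.00768 and 0.0187). FDXR, which passes electrons to mitochondrial cytochromes, and STEAP3, an iron reductase, showed 0.30 ± 0.15 and -0.11 ± 0.08 and did not pass (adjusted p = 0.165 and 0.343).

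Of the remaining 6 genes, 4 rose. GDF15, a secreted stress cytokine, had 91.9 and 52.5 CPM in wild type with control siRNA, 98.2 and 89.6 with NORAD siRNA, 192 and 147 in knockout with control siRNA and 148 and 166 with NORAD siRNA, a difference of 0.99 ± 0.16 (adjusted p = 0.00799). The second wild-type library with control siRNA was the lowest of the 8, and the genotypes did not overlap. ZMAT3, an RNA-binding zinc finger protein, had 20.2 and 21.1 and 17.4 and 18.9 CPM in the wild-type groups and 33.1 and 40.2 and 32.97 and 37.8 CPM in the knockout groups, a difference of 0.90 ± 0.10 (adjusted p = 0.00149). SUSD6, a membrane protein, had 13.7 and 14.04 and 14.8 and 14.6 CPM in the wild-type groups and 18.8 and 20.3 and 14.99 and 17.02 CPM in the knockout groups, its lowest knockout library only just above wild type. RPS27L, a paralog of ribosomal protein S27 that may share reads with it, and SUSD6 rose by 0.67 ± 0.12 and 0.32 ± 0.09 (adjusted p = 0.0101 and 0.0391). CD82, a tetraspanin, showed 0.10 ± 0.14 (adjusted p = 0.615), and TRIM22, an antiviral ubiquitin ligase, 1.33 ± 0.47 (adjusted p = 0.0754) at no more than 1.16 CPM in any HCT116 library.

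**Figure D2:**
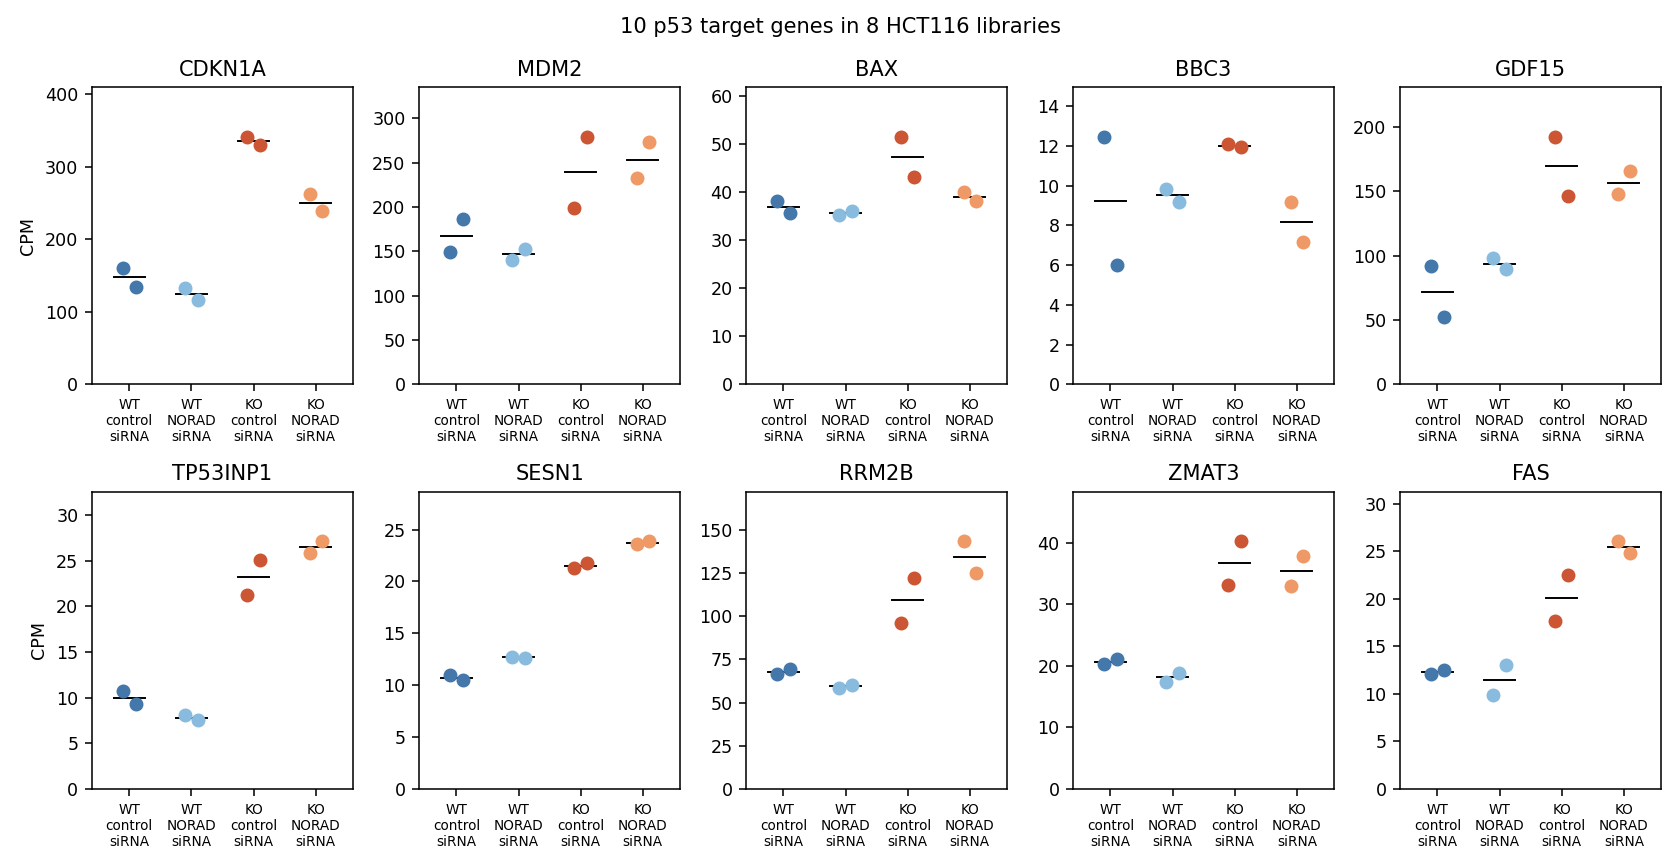
CPM of 10 p53 target genes in the 8 HCT116 libraries, each point 1 library and each bar the mean of 2, with axes from 0 and WT and KO for wild type and SAM68 knockout. CDKN1A, MDM2, GDF15, TP53INP1, SESN1, RRM2B, ZMAT3 and FAS lie higher in all 4 knockout libraries, and BBC3 overlaps between genotypes.

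The 30 tested members with a promoter window were divided by whether it held a full site of at most 3 mismatches. Of the 12 with one, 8 were called higher, and of the 18 without one, 10, beside 11.0% of all genes tested. Genes outside the list were not divided in this way. The median log2 fold changes were 0.66 and 0.35. This is a description of the 2 sets, with no test.

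The knockout comparison was made separately under each siRNA, in libraries that are not shared. With control siRNA, 6 members rose (CDKN1A, TP53INP1, SESN1, TP53I3, BTG2 and ZMAT3) and 0 fell, against 0.167% and 0.145% of all genes. Their log2 fold changes were 1.18 ± 0.12, 1.21 ± 0.14, 1.003 ± 0.12, 1.26 ± 0.20, 0.71 ± 0.11 and 0.83 ± 0.14 (adjusted p = 0.0031, 0.0065, 0.0065, 0.0343, 0.0342 and 0.0476). With NORAD siRNA, 20 members rose and 0 fell, against 11.6% and 6.58% of all genes, and the 20 included all 6 of the former. The strongest under NORAD siRNA were TP53INP1 at 1.77 ± 0.14, RRM2B at 1.19 ± 0.13, FAS at 1.17 ± 0.17 and CDKN1A at 1.02 ± 0.12 (adjusted p = 0.00104, 0.00424, 0.01 and 0.00518), and the smallest changes called were those of FBXO22, PPM1D and TRIAP1 at 0.34 ± 0.10, 0.41 ± 0.10 and 0.56 ± 0.11 (adjusted p = 0.0424, 0.0308 and 0.0189).

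The members' median log2 fold change was 0.36 with control siRNA and 0.39 with NORAD siRNA, beside 0.00 and -0.02 for all genes tested. The value was positive in 37 and in 35 members, and in both comparisons for 33. The 2 knockout libraries lay above the 2 wild-type libraries for 31 of 40 members with control siRNA and for 31 with NORAD siRNA, of which 28 were in common, while 18.2% and 33.9% of all genes did so. They lay below for 0 members with control siRNA and for 3 with NORAD siRNA (NINJ1, STEAP3 and XPC), against 16.4% and 34.8% of all genes. Across the 40 members the 2 sets of log2 fold changes had a Pearson correlation of 0.78, a description over genes of 1 line that were measured by the same method and are not independent replicates.

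**Figure D3:**
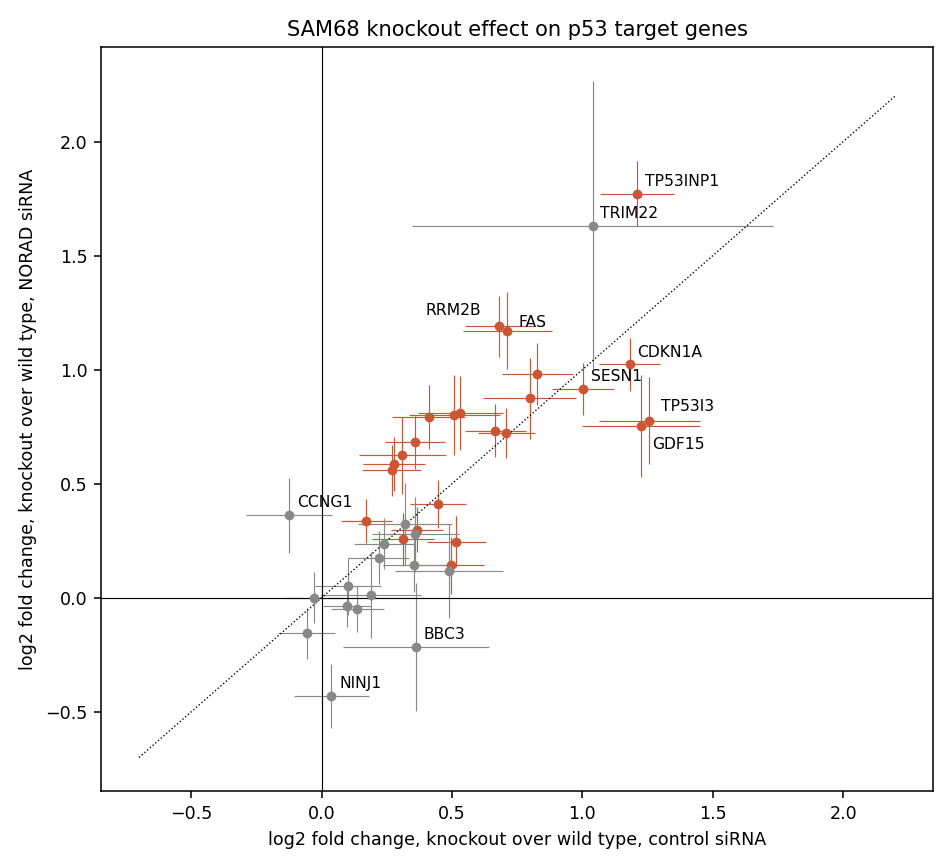
Log2 fold change of knockout over wild type for each of the 40 tested p53 target genes with control siRNA (x axis) and NORAD siRNA (y axis), with standard errors as bars and a dotted line of equality. Red points are the 24 members called in the average of both siRNAs, and 33 of the 40 points lie in the upper right quadrant.

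The number of members called depended on single libraries, and so did the number called among all genes. Each fit without 1 library leaves 1 library in a group. With control siRNA, 6 calls became 5 without the first and 3 without the second wild-type library, and 6 without the first and 1 without the second knockout library. With NORAD siRNA, 20 became 2 without either wild-type library, and 1 without the first and 13 without the second knockout library. In the average of both, 24 became 11 without the first wild-type NORAD siRNA library and 13 without the first knockout NORAD siRNA library, and between 17 and 24 without each of the others. The members' median in that average stayed between 0.37 and 0.43 in these 8 fits, with 36 to 38 positive values and 0 members called lower. NINJ1 was called lower with NORAD siRNA when low counts were not filtered (adjusted p = 0.0199), and with the replicate number as a block it was called lower with NORAD siRNA and in the average (adjusted p = 0.0059 and 0.0477 in edgeR). A correction for GC content and length was an alternative added after the data were seen. With it, the calls with control siRNA, with NORAD siRNA and in the average were 17, 18 and 29 members, all higher. Of all 11707 genes tested in that fit, 124, 391 and 944 were called higher, against 23, 1590 and 1513 of 13764 without the correction. FBXO22 under NORAD siRNA had -0.01 with this correction. The median GC content was 47.2% for the members and 48.3% for all genes, but single members ran from 36.4% (RRM2B) to 69.7% (BBC3). Of the members called with NORAD siRNA, all but CDKN1A, BTG2, TP53I3 and GDF15 lay below the median of all genes. Of those tested and not called there, only CCNG1, POLH, APAF1, TRIM22 and CMBL lay below it. The part of GC content in the calls was not tested.

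MDM4, the p53 inhibitor related to MDM2, had 78.6 and 102 CPM in wild type and 77.6 and 91.7 CPM in knockout with control siRNA and showed 0.01 ± 0.11 in the average (adjusted p = 0.936). Among 37 tested regulators of p53, 2 rose and 1 fell in the average, against 11.0% and 6.62% of all genes: the ubiquitin ligase gene RCHY1 (0.46) and the conjugating enzyme gene UBE2D1 (0.46) rose, and the acetyltransferase gene KAT8 (-0.35) fell. With NORAD siRNA alone 5 rose (UBE2D1, RCHY1, ATR, XPO1 and CHEK1) and 3 fell (KAT8, TP73 and PPP1R13L), against 11.6% and 6.58% of all genes, and with control siRNA alone 0 were called. The calls with NORAD siRNA were 2 higher without the second knockout library and 0 without any other library of that comparison or with the GC and length correction. In the average with the GC and length correction 0 rose and 2 fell, and 0 were called without the first wild-type NORAD siRNA library, the second knockout control siRNA library or the first knockout NORAD siRNA library.

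A second list of 62 p53 targets from outside the member list showed the same direction. It too was chosen with earlier results of these data known, so it is not independent of them. Of 57 tested, 19 rose and 0 fell in the average of both siRNAs, with a median log2 fold change of 0.16, against 11.0% and 6.62% of all genes and a median of -0.01. SERPINB5, the serpin maspin, FUCA1, a lysosomal fucosidase, and FAM210B, a mitochondrial membrane protein, had the smallest p, with 1.146 ± 0.09, 0.70 ± 0.09 and 0.83 ± 0.10 (adjusted p = 0.000143, 0.0032 and 0.00331). The count was 8 without the first wild-type or the first knockout NORAD siRNA library and 25 with the GC and length correction, where 2 fell.

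Cell cycle genes that p21 represses through the DREAM complex did not move one way in the average of both siRNAs. Of 30 tested, 4 rose (13.3%, near the 11.0% of all genes) and 5 fell (against 6.62%), with a median of -0.06. With control siRNA alone 24 were negative and 6 positive, with 0 called and a median of -0.085, against 0.003 for all genes. With NORAD siRNA alone 16 were positive and 14 negative, with a median of 0.012, against -0.018 for all genes. The mitotic motor gene CENPE, the kinase gene CDK1 and the cyclin gene CCNE2 rose (0.37 ± 0.09, 0.36 ± 0.09 and 0.47 ± 0.12, adjusted p = 0.0235, 0.024 and 0.032), while the mitotic kinase genes AURKB and PLK1 and the activator gene CDC20 fell (-0.39 ± 0.09, -0.35 ± 0.08 and -0.28 ± 0.07, adjusted p = 0.0212, 0.0213 and 0.0257). With the GC and length correction 0 of these rose and 5 fell, and without the first wild-type NORAD siRNA library 0 of the 30 were called. Of 21 tested genes of the integrated stress response, which answers amino acid shortage and faulty translation, 0 rose and 3 fell, against the same 11.0% and 6.62%, namely the serine enzyme gene SHMT2 (-0.27), the pseudokinase gene TRIB3 (-0.33) and the alanyl-tRNA synthetase gene AARS1 (-0.23). None of the 21 was called with the GC and length correction, in which 18 could be tested. The cell type markers EPCAM and VIM differed between the genotypes by 0.32 ± 0.07 and -1.09 ± 0.19, VIM at 1.25 to 4.28 TPM in HCT116; their part in the members' differences was not tested.

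NORAD siRNA changed no p53 target gene past the threshold in wild type or in the knockout. In wild type 0 of 40 members were called in edgeR, against 0.00727% of all genes (NORAD itself), with 2 at an unadjusted p below 0.05, and DESeq2 called 0. In the knockout 0 were called, against 0.00727%, with 7 at an unadjusted p below 0.05, and DESeq2 called 0. The 2 siRNA groups did not overlap for 9 members that were higher and 9 that were lower in wild type, against 13% and 13.9% of all genes, and for 10 and 11 in the knockout, against 22.0% and 21.4%. The members' medians were -0.05 and 0.00, against 0.00 and 0.00 for all genes.

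CDKN1A had the smallest p among the members in the knockout and in the average of both genotypes. Its levels given above were lower with NORAD siRNA than with control siRNA in both genotypes without overlap, by -0.25 ± 0.12 in wild type (adjusted p = 0.999) and -0.41 ± 0.12 in the knockout (adjusted p = 0.428). The average was -0.33 ± 0.08, with an unadjusted p of 0.00261 and an adjusted p of 0.997 in edgeR. With the replicate number as a block that adjusted p was 0.047, so that the call of CDKN1A depended on the block. In wild type, TP53INP1 and TIGAR had -0.36 ± 0.15 and -0.30 ± 0.12, and SESN1, GDF15 and POLH had 0.24 ± 0.12, 0.37 ± 0.23 and 0.16 ± 0.11, all with an adjusted p of 0.999. POLH went from 36.8 and 42.6 to 44.1 and 44.8 CPM. Of these 5 genes only GDF15 overlapped between the 2 siRNAs. In the knockout, NINJ1 went from 33.7 and 28.4 to 24.6 and 23.3 CPM and AEN from 108 and 112 to 90.8 and 95.3 CPM, again without overlap. NINJ1 and AEN had -0.36 ± 0.14 and -0.23 ± 0.09, and PERP, RRM2B and TRIAP1 had 0.29 ± 0.12, 0.31 ± 0.13 and 0.25 ± 0.11 (adjusted p = 0.428, 0.431, 0.433, 0.438 and 0.44). BAX and BBC3 had -0.27 ± 0.12 and -0.55 ± 0.28 in the knockout (adjusted p = 0.44 and 0.464), and MDM2 had -0.20 ± 0.17 in wild type and 0.09 ± 0.17 in the knockout (adjusted p = 0.999 and 0.836).

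Averaged over the genotypes 0 of 40 members were called in edgeR, against 0.00727% of all genes, with 3 at an unadjusted p below 0.05 and 0 called in DESeq2. With the replicate block 1 member, CDKN1A, was called lower. After CDKN1A, the smallest p in that average were those of AEN (-0.16 ± 0.07) and BAX (-0.16 ± 0.08) among the negative values and of SESN1 (0.20 ± 0.08), POLH (0.16 ± 0.08) and PERP (0.13 ± 0.08) among the positive ones, all with an adjusted p of 0.997.

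An interaction term tested whether NORAD siRNA acted differently in the 2 genotypes. No member was called in edgeR, against 0.0% of all genes, with 3 at an unadjusted p below 0.05 and 0 in DESeq2. The smallest p was that of TP53INP1, whose level was lower with NORAD siRNA in wild type and higher in the knockout, a difference of 0.56 ± 0.20 (adjusted p = 0.642). RRM2B and CCNG1 had 0.51 ± 0.19 and 0.49 ± 0.23, and NINJ1, SUSD6 and TP53I3 had -0.47 ± 0.20, -0.35 ± 0.18 and -0.48 ± 0.27 (adjusted p = 0.642 for each).

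In U2OS, neither lowering nor raising SAM68 changed a p53 target gene past the threshold. KHDRBS1 had 245 and 249 CPM with control siRNA and 80.6 and 48.6 with SAM68 siRNA, a log2 change of -1.94 ± 0.25 that did not itself pass (adjusted p = 0.185). It had 219.8 and 277 CPM with the control plasmid and 530.4 and 594 with the SAM68 plasmid, whose mouse sequence can only partly be counted on the human gene. The coefficient of variation between replicates, as the fit estimated it, was 20.0% in U2OS and 11.3% in HCT116. SAM68 siRNA called 0 of 39 tested members in edgeR, against 0.00639% of all 15658 genes, with 0 at an unadjusted p below 0.05 and 0 in DESeq2. The SAM68 plasmid called 0 of 39, against 0.00639%, with 1 at an unadjusted p below 0.05 and 0 in DESeq2. Groups did not overlap for 2 members that were higher and 2 that were lower with SAM68 siRNA, against 9.46% and 9.42% of all genes, and for 7 and 2 with the SAM68 plasmid, against 10.0% and 7.94%. The members' medians were -0.02 and 0.01, and those of all genes -0.01 and 0.01.

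With SAM68 siRNA, CDKN1A had 69.1 and 94.1 CPM against 76.5 and 83.97 with control siRNA, a difference of 0.03 ± 0.21 (adjusted p = 1). The replicates of the siRNA group enclosed those of the control. MDM2 had 148 and 76.8 against 144 and 115 CPM, BAX 68.3 and 92.7 against 88.1 and 88.2 CPM and BBC3 4.901 and 9.19 against 6.71 and 7.95 CPM, and each pair of groups overlapped. GDF15 was between 0.520 and 0.700 CPM in both groups. GADD45A went from 32.04 and 31.7 to 39.04 and 35.2 CPM, PLK3 from 10.4 and 12.1 to 11.1 and 15.8 and SUSD6 from 28.9 and 30.5 to 31.01 and 38.02, and ASCC3 from 118 and 90.6 to 105 and 39.97, CCNG1 from 286 and 231 to 228 and 166 and ZMAT3 from 74.1 and 65.1 to 68.8 and 40.3. GADD45A, SUSD6 and CCNG1 did not overlap between the groups. The smallest p in each direction belonged to GADD45A, PLK3 and SUSD6 (0.22 ± 0.19, 0.26 ± 0.23 and 0.22 ± 0.19) and to ASCC3, CCNG1 and ZMAT3 (-0.53 ± 0.40, -0.39 ± 0.30 and -0.35 ± 0.29), all with an adjusted p of 1. ASCC3 rested on the second SAM68 siRNA library, and its difference was 0.01 without it; PLK3 was -0.03 without the same library.

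With the SAM68 plasmid, GDF15 had 1.999 and 1.73 CPM against 0.638 and 0.874 with the control plasmid, and the groups did not overlap. The log2 fold change was 1.27 ± 0.40, with an unadjusted p of 0.0105 and an adjusted p of 1 in edgeR. CDKN1A had 97.6 and 75.9 against 72.6 and 75.8 CPM, MDM2 61.2 and 93.6 against 95.5 and 73.8 CPM, BAX 132 and 96.3 against 94.04 and 109 CPM and BBC3 10.4 and 6.75 against 5.74 and 6.17 CPM. For CDKN1A the plasmid group was higher by 0.22 ± 0.21, with the nearest libraries at 75.8 and 75.9 CPM. BBC3 and RPS27L showed 0.52 ± 0.33 and 0.40 ± 0.26, and CCNG1, CD82 and SESN1 -0.20 ± 0.30, -0.14 ± 0.23 and -0.12 ± 0.23, all with an adjusted p of 1. RPS27L had 242 and 134 against 149 and 136 CPM, CCNG1 106 and 212 against 185 and 181, CD82 17.5 and 16.8 against 18.9 and 18.8 and SESN1 8.74 and 12.7 against 11.8 and 11.6, and among these CD82 alone did not overlap. RPS27L, CCNG1 and SESN1 changed sign without the first SAM68 plasmid library, to -0.09, 0.21 and 0.12. Whether the SAM68 siRNA effect in U2OS differs from the knockout effect in HCT116 was not tested, since the line, the way of lowering SAM68 and its duration differ together.

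The 2 kinds of control in U2OS, siRNA and plasmid, differed in 3 members. TP53INP1 had 33.3 and 34.7 CPM with control siRNA and 9.64 and 8.47 with control plasmid, a difference of 1.91 ± 0.28 (adjusted p = 0.0206). TRIM22 had 25.2 and 30.2 against 11.6 and 12.4 CPM, a difference of 1.21 ± 0.23 (adjusted p = 0.0456). GADD45A had 32.04 and 31.7 against 60.5 and 76.1 CPM and differed by -1.10 ± 0.19 (adjusted p = 0.0332). None of the 3 overlapped between the groups, and the groups treated with SAM68 siRNA or plasmid lay near their own control.

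The 2 higher and 1 lower call among 39 members stood against 1.03% and 0.268% of all genes (1.3% in either direction). CDKN1A, MDM2, BAX, BBC3 and GDF15 showed 0.11, 0.61, -0.20, 0.30 and -0.37 and did not pass. All 3 calls were lost when any 1 of the 4 libraries was left out, while 6 members were called without the filter and with the GC and length correction. The split of all calls in this comparison moved with the scaling, from 162 higher and 42 lower to 125 and 59 with RLE scaling in edgeR and 559 and 463 in DESeq2. The agent transfected and any difference in how or when the siRNA and plasmid groups were handled cannot be told apart.

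**Figure D4:**
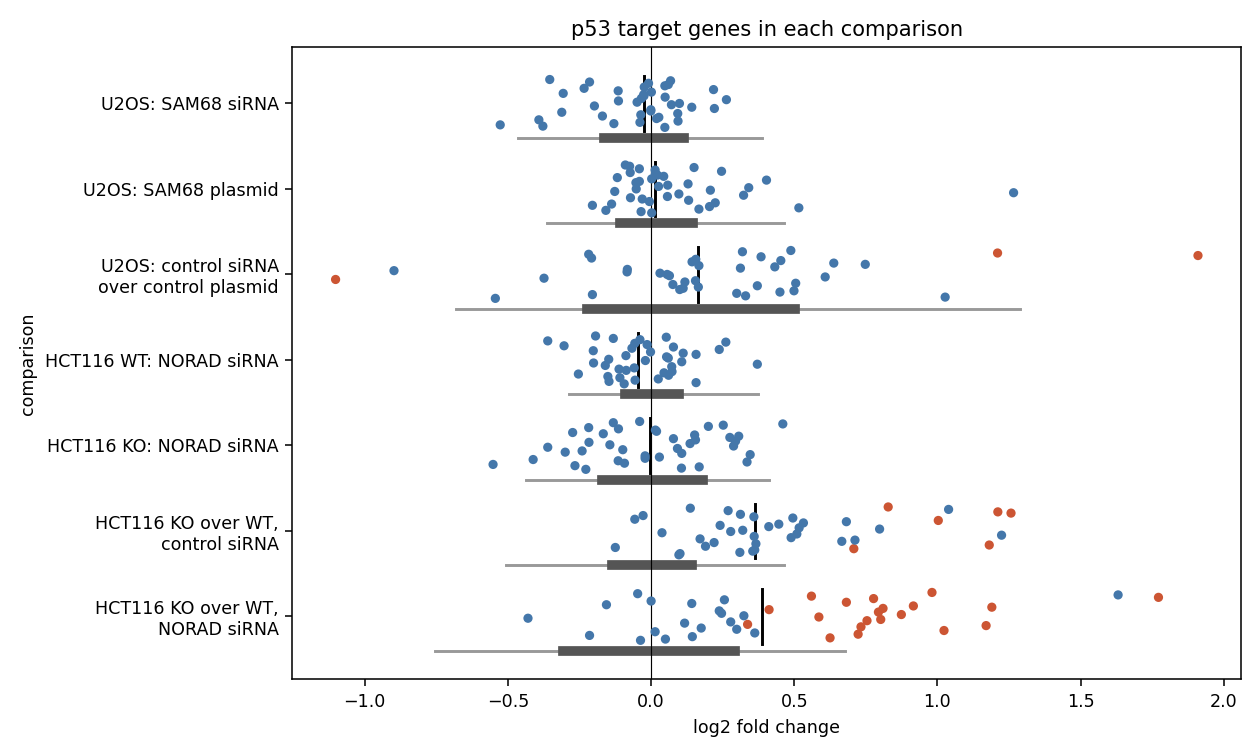
Log2 fold changes of the tested p53 target genes in 7 comparisons (rows), each point 1 gene, red where called by edgeR and blue where not, with the members' median as a black bar. The grey line under each row spans the central 90% of all genes tested and its thick part the central 50%; in the knockout rows the members' medians of 0.36 and 0.39 lie to the right of the thick part and inside the upper end of the line, at 0.46 and 0.68.

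Per length, the members covered a wide range of levels in each line. Across the 8 HCT116 libraries the highest median TPM were those of GDF15 (182, range 89.6 to 297), CDKN1A (162, range 97.2 to 287), RPS27L (153), TRIAP1 (99.3) and BAX (96.5). In the 8 U2OS libraries they were those of RPS27L (321), BAX (255), CCNG1 (151), PLK2 (102) and TP53I3 (89.1). The ranges of GDF15, CDKN1A and RPS27L overlapped in HCT116, and those of RPS27L and BAX in U2OS, so these neighbours in the order are not separated by their spread. The lowest in HCT116 were TRIM22 (0.24 TPM) and SPATA18 (at most 0.02 TPM), and in U2OS GDF15 (1.25 TPM), TNFRSF10A and SPATA18 (at most 0.08 and 0.04 TPM).

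Between the lines, with control siRNA and wild-type genotype, 18 of 40 members were higher in U2OS and 10 lower, against 35.6% and 29.8% of 16444 genes (65.4% in either direction). The members' median log2 difference, U2OS over HCT116, was 0.29 and that of all genes 0.10. TRIM22 had 23.6 and 28.2 CPM in U2OS and 0.192 and 0.377 in HCT116, a difference of 6.53 ± 0.42 (adjusted p = 9.82e-09). TP53I3 had 63.3 and 68.7 against 11.3 and 8.805 CPM (2.70 ± 0.28, adjusted p = 1.18e-06). PLK2 had 157 and 128 against 35.8 and 41.6 CPM, TP53INP1 31.3 and 32.3 against 11.1 and 9.62, ZMAT3 69.5 and 60.7 against 20.9 and 21.9 and CD82 16.1 and 21.8 against 7.31 and 7.17. Among the wild-type control siRNA libraries, none of 1 line reached the other in these genes. With control plasmid, TP53INP1 in U2OS had 9.66 and 8.34 CPM, which overlapped its values in wild-type HCT116 with control siRNA. RRM2B, also called higher in U2OS, had 75.95 and 69.2 CPM with control plasmid, which overlapped its 68.7 and 72.1 in HCT116. SESN1, called higher too, had 11.8 and 11.4 CPM with control plasmid, just above its 11.3 and 10.9 in HCT116. The other members called higher in U2OS did not overlap with control plasmid either. PLK2, TP53INP1, ZMAT3 and CD82 had differences of 1.88 ± 0.19, 1.61 ± 0.23, 1.60 ± 0.24 and 1.38 ± 0.22 (adjusted p = 1.02e-06, 2.37e-05, 4.14e-05 and 7.09e-05). BAX was higher in U2OS, with 82.7 and 82.3 against 39.2 and 37.04 CPM and a difference of 1.11 ± 0.19 (adjusted p = 0.000128).

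GDF15 and TNFRSF10A were the members furthest below HCT116. GDF15 had 0.488 and 0.612 CPM in U2OS and 94.8 and 54.6 in HCT116, a difference of -7.06 ± 0.32 (adjusted p = 3.46e-10). TNFRSF10A had an expected count of 0 in both U2OS libraries and 41.5 and 40.1 CPM in HCT116. That is at least 279-fold lower when 3 counts per library are taken as the limit that a count of 0 allows. TNFRSF10A passed the filter on low counts through HCT116 alone, so its call adds nothing to these counts. GDF15 and TNFRSF10A were present in every HCT116 library. PERP had 30.5 and 25.02 CPM in U2OS and 100.2 and 95.03 in HCT116, PLK3 9.803 and 11.3 and 33.8 and 28.99, CMBL 21.3 and 20.2 and 53.7 and 56.5, and TNFRSF10B 68.6 and 66.9 and 161 and 194. Their log2 differences were -1.82 ± 0.17, -1.58 ± 0.18, -1.41 ± 0.13 and -1.39 ± 0.15 (adjusted p = 3.36e-07, 3.9e-06, 4.25e-07 and 1.91e-06). CDKN1A was lower as well, with 71.8 and 78.3 against 166 and 139.6 CPM and a difference of -1.03 ± 0.18 (adjusted p = 0.000165). MDM2 and BBC3 showed -0.53 ± 0.28 and -0.49 ± 0.34 and did not pass (adjusted p = 0.108 and 0.215). MDM4, the p53 inhibitor, had 53.8 and 45.9 CPM in U2OS and 81.05 and 106 in HCT116 (-0.91 ± 0.21, adjusted p = 0.00162). Differences between the lines and any difference in how or when they were handled cannot be told apart.

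**Figure D5:**
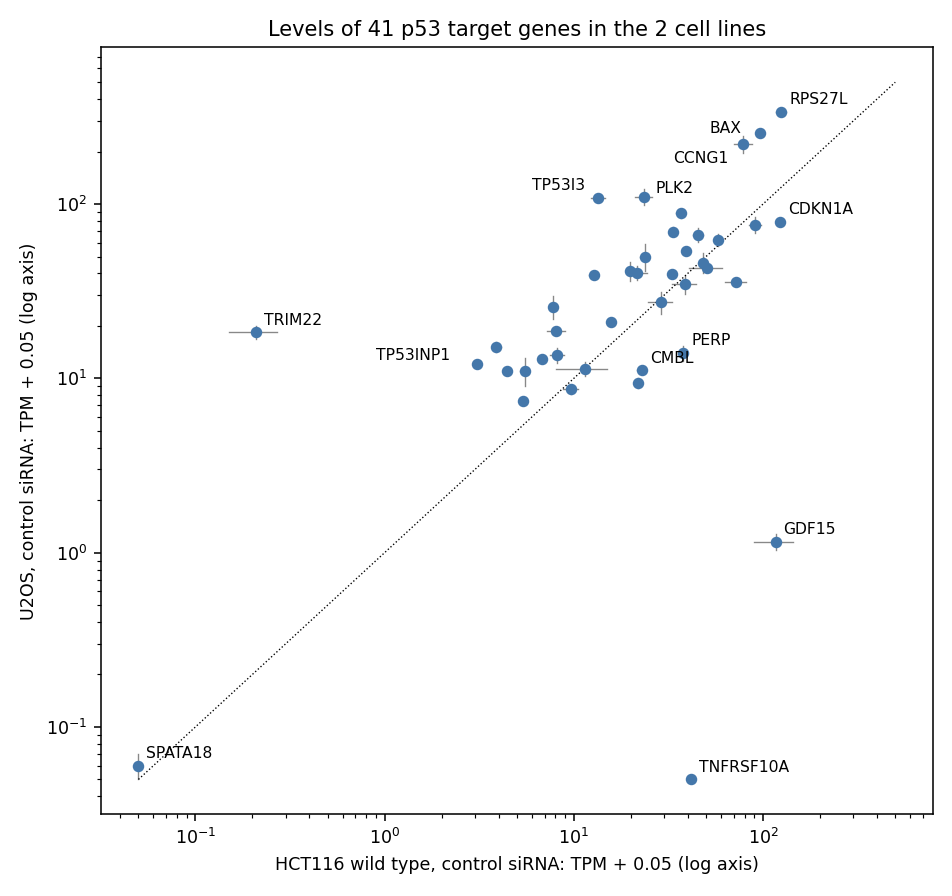
TPM + 0.05 of the 41 p53 target genes in wild-type HCT116 (x axis) and U2OS (y axis) with control siRNA, both axes logarithmic, each point the mean of 2 libraries with grey lines to both values and a dotted line of equality. TRIM22 stands far above the line, GDF15 and TNFRSF10A far below it, and SPATA18 is near 0 in both.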

How the data were processed

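Strand-specific poly(A) libraries of 16 samples were analysed. Per the file headers, the values are RSEM gene estimates with 1 file per library. Expected counts (estimated read counts, not whole) were used as deposited and rounded to whole numbers; TPM deposited by the authors served for levels between genes. FPKM and effective lengths, also deposited by the authors per the file headers, served no result. The submitters' processing notes name STAR, RSEM and hg19. They give no versions, and the strand setting is not given in the sources used here. Names came from RefSeq (GRCh38.p14), a later build than that of the files, and no coordinates of the files are printed.

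Each line was fitted with its 4 groups (8 libraries), and the lines were compared in 1 fit of 16, with edgeR 4.0.16 in R 4.3.3 (filterByExpr, TMM, quasi-likelihood test, Benjamini-Hochberg, threshold 0.05). CPM are TMM-scaled, within a line or, between lines, over both. Scripts were checked on simulated counts. Alternatives were edgeR's RLE scaling, no filter, a replicate block, DESeq2 1.42.0, leaving out each library and, added after the data were seen, an offset for GC content and length from GENCODE transcripts.

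Members, context lists, roles and tests were chosen with earlier results of these data known. Library values are given for CDKN1A, MDM2, BAX, BBC3 and GDF15 and for the leading members called. Where over 12 were called, the 6 highest and 6 lowest were named, and where none was called, up to 3 per direction with the smallest p. From the context lists MDM4 and up to 3 called genes per direction were named. Other members were added so that every member of the list has a value in the knockout comparison. Some genes of the regulator list are not reported here.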

Additional observations from a re-analysis of the deposited data

How the results depend on the processing

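Of the named genes, 6 fold changes reversed under an alternative. They were PLK3 (-0.027, and 0.575 without the first) and ASCC3 (0.011, and -1.299 without the first) without the second SAM68 siRNA library, and RPS27L (-0.09, and 0.768 without the second), CCNG1 (0.209, and -0.792) and SESN1 (0.116, and -0.421) without the first SAM68 plasmid library. FBXO22 in knockout cells that received NORAD siRNA became -0.009 with the GC and length offset, an alternative added after the data were seen. The cause was not tested. The calls of U2OS against HCT116 stayed within 1.5 times under every alternative run.

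The knockout comparison with control siRNA called 6 members and 43 genes, and 13 and 272 with no filter, 10 and 112 with DESeq2, 17 and 210 with the GC and length offset, and 1 to 6 and 20 to 41 without 1 library. With NORAD siRNA it called 20 members and 2495 genes, and 3965 genes with no filter, 634 with the offset, and 1 to 13 members and 19 to 747 genes without 1 library. The average called 24 members and 2424 genes, and 3772 genes with no filter, 1598 with the offset, and 11 to 24 members and 201 to 3144 genes without 1 library. Control siRNA against control plasmid called 3 members and 204 genes, and 6 and 1609 with no filter, 1022 genes with DESeq2, 6 and 1315 with the offset, and 0 members and 1 to 54 genes without 1 library. A fit without 1 library has fewer degrees of freedom. The cause of the shifts in these counts was not tested.

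Over all genes, SAM68 siRNA called 1, and 27 with no filter, 7 with DESeq2, 0 with the offset and 0 to 5 without 1 library. The SAM68 plasmid called 1, and 15, 4, 0 and 0 to 4 under the same settings. NORAD siRNA called 1 in wild type, and 33 with no filter, 5 with DESeq2 and 1 to 2 without 1 library; 1 in the knockout, and 61, 8, 2 with the offset and 0 to 4; and 1 on average, and 48, 13, 11 and 1 to 3. The interaction called 0, and 30 with no filter, 2 with DESeq2 and 0 to 1 without 1 library.

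The labels give replicate numbers but do not tie them to a shared culture or day. Differences between replicates 1 and 2 correlated between groups at 0.19 to 0.60 in HCT116 and at -0.42 to 0.67 in U2OS, and with 2 numbers per group and no label of a shared source they were not taken as pairs. With the replicate number as a block, the knockout comparison called 15 members and 254 genes with control siRNA, 26 and 5539 with NORAD siRNA and 32 and 5247 in the average. In each of the last 2 comparisons 1 of these members, NINJ1, was called lower and the others higher. Under the block NORAD siRNA called 3 genes in wild type, 7 in the knockout, 15 on average, among them 1 member, CDKN1A, and 2 in the interaction. SAM68 siRNA and plasmid called 0 each.

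Depth limits SPATA18 in both lines, TRIM22 in HCT116 and GDF15 and TNFRSF10A in U2OS, which have too few counts for small changes to be detectable.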

Other observations

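The context lists also differed between the lines. In U2OS against wild-type HCT116 with control siRNA, 18 of 60 further p53 targets were higher and 24 lower, and 9 of 37 p53 regulators were higher and 12 lower. CDKN2A, whose product ARF restrains MDM2, had the smallest p among the lower regulators. Of 22 tested genes of the integrated stress response 2 were higher and 16 lower in U2OS, with a median log2 difference of -0.86, and of 30 cell cycle genes 12 were higher and 7 lower. These counts stand against 35.6% and 29.8% of all genes. They use U2OS with control siRNA alone. Within U2OS, 19 of the 22 genes of the integrated stress response were lower and 3 higher with control siRNA than with control plasmid. Their median was -0.404 there, against 0.107 for all genes, and 1 of them, TRIB3, was called.

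In the NORAD siRNA comparisons in HCT116 and in the interaction, no gene of the 4 context lists was called in edgeR. With NORAD siRNA in both genotypes, 16 of 57 further targets were higher in the knockout and 1, MICALL1, was lower, against 11.6% and 6.58% of all genes. The count higher was 1 without either wild-type library or without the first knockout library, and 9 without the second. Of 30 cell cycle genes 5 were higher and 6 lower in the same comparison (1 and 2 without the second knockout library, and 0 without any other), and of 21 genes of the integrated stress response 0 were higher and 1 lower.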
